A study of Mus musculus with 96 samples.

Results

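RNA-seq compared myotubes that received the ATP synthase inhibitor oligomycin together with the uncoupler BAM15 and myotubes that received oligomycin alone. The comparison rests on 6 of the 96 samples of the series, 3 in each group, taken by their labels. All were C2C12 cells, a mouse myoblast line that fuses into contractile muscle fibres (myotubes) in low serum. The cells were not transduced, had spent 4 days in low-serum media, and were treated for 10 hr with 1 µM oligomycin, with 0.5 µM BAM15, with both, or with DMSO, the solvent. Oligomycin with 0.5 µM piericidin, a complex I inhibitor, was a further group, and DMSO or oligomycin was also given to myotubes kept in 5% O2, each with 3 samples. Piericidin alone and antimycin, a complex III inhibitor, made up the last groups of the fit (3 samples each) and entered no comparison here. A single cell line was used, and the labels do not say whether the 3 samples of a group were independent experiments, so p-values measure the spread between these samples, which may be technical.

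The electron transport chain pumps protons out of the mitochondrial matrix, and ATP synthase lets them return while it makes ATP. Oligomycin blocks that return path, which hyperpolarizes the inner membrane, whereas BAM15 carries protons across the membrane, so that respiration continues without ATP synthesis. The integrated stress response (ISR) is a program in which kinases phosphorylate the translation factor eIF2α, the transcription factor ATF4 is translated more, and genes of amino acid supply, tRNA charging and stress signalling are transcribed. The hypoxia-inducible factor HIF is degraded when prolyl hydroxylases have oxygen to use, and otherwise raises genes of glycolysis and oxygen supply. The study used BAM15 with oligomycin to ask whether the stress response to oligomycin depends on the membrane potential.

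The promoters shown are of 4 ISR genes and 3 HIF target genes that changed and hold the motif of their pathway. The first set shows the C/EBP-ATF response element, TGATGNAA, which factors of the ATF4 family bind, in capitals on the reverse strand. Each run ends at the base before the RefSeq start site in GRCm38.p6, except for Trib3, where the motif starts 14 bases after the start site and 30 bases around it are shown. The Atf3 run is chr1:191183334-191183583 on the minus strand, with the motif from 110 bases before the start.
Atf3: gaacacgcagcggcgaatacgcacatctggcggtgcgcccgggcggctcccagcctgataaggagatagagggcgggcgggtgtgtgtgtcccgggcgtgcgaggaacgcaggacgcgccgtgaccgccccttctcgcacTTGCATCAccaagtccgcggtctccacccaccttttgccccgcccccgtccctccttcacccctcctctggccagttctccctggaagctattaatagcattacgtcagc
The Fgf21 run is chr7:45615491-45615740 on the minus strand, with the motif from 139 bases before the start.
Fgf21: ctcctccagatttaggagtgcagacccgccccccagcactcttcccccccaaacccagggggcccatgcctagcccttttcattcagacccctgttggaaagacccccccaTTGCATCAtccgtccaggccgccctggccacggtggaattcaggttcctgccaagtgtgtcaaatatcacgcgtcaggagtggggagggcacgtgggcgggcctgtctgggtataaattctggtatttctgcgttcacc
The Trib3 run is chr2:152344028-152344057 on the minus strand.
Trib3: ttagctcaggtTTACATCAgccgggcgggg
The Chac1 run is chr2:119350992-119351241 on the plus strand, with the motif from 193 bases before the start.
Chac1: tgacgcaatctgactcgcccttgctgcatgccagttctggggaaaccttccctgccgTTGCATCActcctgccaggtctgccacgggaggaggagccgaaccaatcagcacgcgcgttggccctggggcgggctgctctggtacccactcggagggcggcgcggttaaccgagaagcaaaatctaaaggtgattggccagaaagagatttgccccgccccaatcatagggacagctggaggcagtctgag
The windows searched ran from 250 bases before to 50 bases after each start, on both strands, and 1304 of 32851 (3.97%) held this motif. A gene counts as holding it if any of its windows does, so counts of genes and of windows differ in unit. Of the 11 ISR regulator, feedback and mitokine genes that changed between the 6 samples, 10 were in the promoter table and these 4 held it; Ppp1r15a, Gdf15 and Ddit3, with larger falls than Chac1, are not among the 4.

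The second set shows the core of the hypoxia response element, ACGTG or GCGTG, in capitals on either strand, with overlapping matches merged. It was found in 12 of the 12 changed HIF target genes that were in the promoter table (of 13 changed), but also in 14380 of 32851 windows (43.8%). Here too the first count is of genes and the second of windows. The 3 runs shown are those of the HIF target genes with the largest changes. The Adm run is chr7:110627407-110627656 on the plus strand and holds 2 matches.
Adm: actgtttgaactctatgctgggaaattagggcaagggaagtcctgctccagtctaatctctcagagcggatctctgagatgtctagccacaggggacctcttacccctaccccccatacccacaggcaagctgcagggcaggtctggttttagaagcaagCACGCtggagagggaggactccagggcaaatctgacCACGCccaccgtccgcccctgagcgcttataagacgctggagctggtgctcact
The Ankrd37 run is chr8:45999851-46000100 on the minus strand and holds 4 matches.
Ankrd37: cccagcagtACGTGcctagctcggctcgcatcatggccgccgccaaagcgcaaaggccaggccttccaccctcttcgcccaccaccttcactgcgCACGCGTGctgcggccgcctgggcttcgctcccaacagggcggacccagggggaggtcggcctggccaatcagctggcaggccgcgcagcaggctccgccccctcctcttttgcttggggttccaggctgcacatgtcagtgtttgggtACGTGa
The Bnip3 run is chr7:138909507-138909756 on the minus strand and holds 5 matches.
Bnip3: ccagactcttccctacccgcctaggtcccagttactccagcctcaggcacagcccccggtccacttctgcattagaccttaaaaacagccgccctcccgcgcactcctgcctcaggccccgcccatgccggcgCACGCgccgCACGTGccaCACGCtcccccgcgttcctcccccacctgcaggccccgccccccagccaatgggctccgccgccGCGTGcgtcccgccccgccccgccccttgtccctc
A match of letters is a description, since binding was not measured.

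The 6 libraries held 9789248 to 11940850 estimated counts each, and the 27 untransduced myotube libraries fitted together held 6458295 to 13759512. Transcripts of the mitochondrial genome took 2.48 to 2.77% of the counts with oligomycin and 2.79 to 2.92% with both, a narrow gap between the groups. Tested singly, 2 of the 13 mitochondrially encoded transcripts were higher with both and 2 lower (median -0.04). All 24 markers of differentiated muscle were detected, as the myotube label has it, and their summed normalised counts ran from 300440 to 310830 with oligomycin and from 301260 to 324090 with oligomycin and BAM15. The summed counts of 16 markers of undifferentiated or cycling cells ran from 4216.6 to 4439.6 with oligomycin and from 3234.9 to 3390.2 with both, without overlap. In a bulk sample, fewer such cells and less RNA per cell cannot be told apart. Of 12491 genes tested with the quasi-likelihood test of edgeR, 1499 (12%) were higher and 1764 (14.1%) lower with both agents than with oligomycin alone at an adjusted p under 0.05, 304 and 138 of them by 2-fold or more. The median log2 fold change over all tested genes was 0.01.

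**Figure D1:**
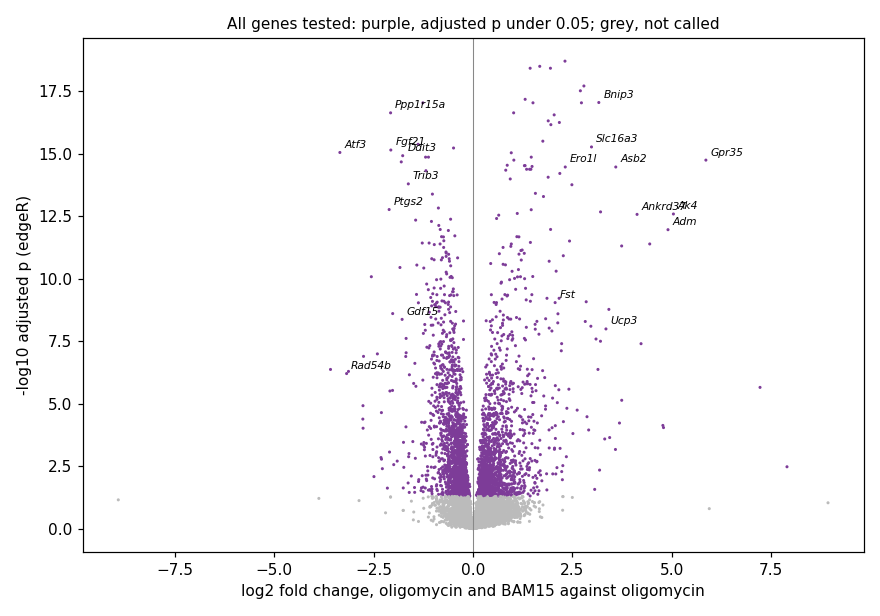
Each point is a gene tested between the 3 samples with oligomycin and BAM15 and the 3 with oligomycin. The horizontal axis is the log2 fold change, the vertical axis is the negative log10 of the edgeR adjusted p, and the 1499 genes called higher and 1764 called lower are purple.

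Oligomycin alone had raised 7 of the 8 tested transcription factors and cofactors of the ISR above DMSO (16.9% of all genes were higher in that comparison), and adding BAM15 lowered 4 of the 8 and raised 0. The bZIP repressor gene Atf3 had the largest fall. Of the 8, 4 fell (Atf3, Ddit3, Trib3 and Atf4) and 4 did not pass the test (Atf5, Cebpg, Nupr1 and Jdp2), with a list median log2 fold change of -0.53. A ninth, Cebpb, had at most 9 counts in each DMSO, oligomycin, BAM15 and combination library and was not tested.

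Atf3 (ENSMUSG00000026628, chr1:191170296-191218039 in GRCm38) had 1948, 1860.4 and 1931 normalised counts in the 3 oligomycin samples and 169, 192 and 201 in the 3 samples with both agents. All 3 samples with BAM15 were far below all 3 without it, and the 2 groups did not overlap. The log2 fold change was -3.35 ± 0.13 (SE, adjusted p = 8.77e-16), a level 10.2-fold lower. Ddit3 (ENSMUSG00000025408, chr10:127290774-127296288), which encodes the transcription factor CHOP, had 3355, 3360.0 and 3315 counts with oligomycin and 899.5, 1093 and 944 with both. These groups did not overlap either, and the change was -1.77 ± 0.07 on the log2 scale (adjusted p = 1.18e-15). Trib3 (ENSMUSG00000032715, chr2:152337422-152344032), a pseudokinase induced by ATF4 and CHOP, had 2933, 2958 and 2900.0 counts with oligomycin and 894, 994 and 953 with both. Every combination sample lay below every oligomycin sample, with a log2 fold change of -1.63 ± 0.08 (adjusted p = 1.59e-14). Atf4 itself had 6888, 6601 and 7104 counts with oligomycin and 3597, 3921 and 3724 with both. The Atf4 groups were separate, and the change was the smallest of the 4, at -0.87 ± 0.05 (adjusted p = 1.47e-13).

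None of these 4 returned to the level in DMSO. The mean of Atf3 was 38.6 ± 4.81 (SD, n = 3) with DMSO, 169.5 ± 35.9 with BAM15 alone and 187 ± 16.5 with both. The mean of Ddit3 was 201 ± 15.1 with DMSO, 832 ± 42.8 with BAM15 alone and 979 ± 102 with both. Against DMSO, the combination was higher for Atf3 by 2.27 ± 0.17 on the log2 scale (adjusted p = 3.29e-10), for Ddit3 by 2.29 ± 0.08 (adjusted p = 2.58e-16), for Trib3 by 3.03 ± 0.09 (adjusted p = 1.73e-17) and for Atf4 by 0.81 ± 0.05 (adjusted p = 1.64e-12). BAM15 alone was itself above DMSO, with Trib3 at 669.6 ± 31.0 (SD, n = 3) against 115 ± 17.5 with DMSO. Nupr1, a stress-induced chromatin cofactor, had 1869, 1835 and 1796 counts with oligomycin and 1534, 1695 and 1598 with both. Its groups did not overlap, but the difference of -0.19 ± 0.07 did not pass the test (adjusted p = 0.0619), although it did with DESeq2 (adjusted p = 0.0294).

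**Figure D2:**
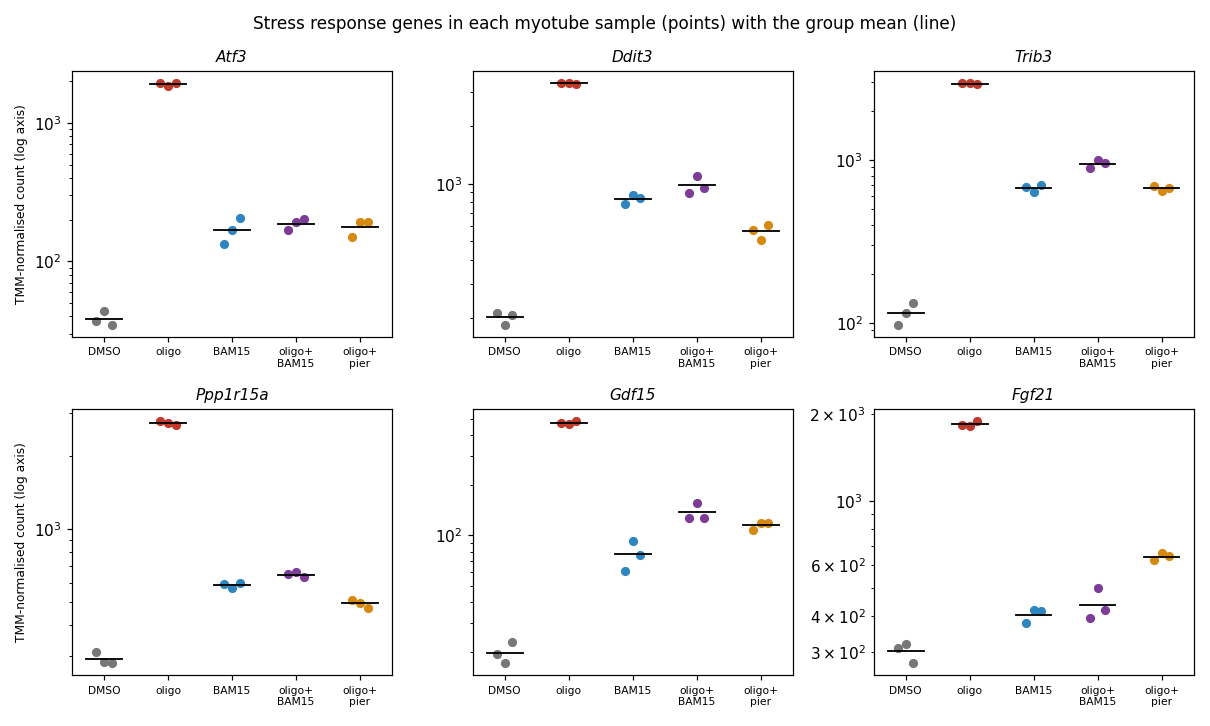
Normalised counts on a log axis of 6 stress genes in each sample of 5 myotube groups (points), with the group mean as a line. In each panel the 3 oligomycin samples are the highest, and those with oligomycin and BAM15 lie between oligomycin alone and DMSO.

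Of 6 feedback and growth-brake genes of the response, 4 fell, 1 rose and 1, Ppp1r15b, was not called (-0.19 ± 0.07, adjusted p = 0.0527), with a median of -0.38. Ppp1r15a, which encodes GADD34, the phosphatase subunit that removes phosphate from eIF2α, had 2785, 2729.6 and 2688 counts with oligomycin and 651, 663 and 631 with both. The groups were far apart, and the level was 4.22-fold lower (log2 fold change -2.08 ± 0.07, adjusted p = 2.27e-17). Sesn2 and Chac1, which restrain mTORC1 and degrade glutathione, fell by 0.73 ± 0.10 and 0.56 ± 0.09 (adjusted p = 5.78e-06 and 1.92e-05), and the translation repressor gene Eif4ebp1 by 0.17 ± 0.05 (adjusted p = 0.00555), a call that the setting without a count filter ended (adjusted p = 0.0629). Ddit4, which encodes the mTORC1 inhibitor REDD1 and is also a HIF target, had 38.3, 46.1 and 51.3 counts with oligomycin and 142, 95.4 and 135 with both. It was higher in each combination sample, with a log2 fold change of 1.46 ± 0.23 (adjusted p = 3.48e-05).

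The 2 mitokines, hormones that stressed muscle secretes, both fell. Fgf21 had 1831, 1816 and 1889 counts with oligomycin and 394, 502 and 421 with both. The groups did not overlap (log2 fold change -2.07 ± 0.08, adjusted p = 7.00e-16), and the combination stayed above the DMSO mean of 303 ± 23.8 (SD, n = 3) by 0.54 ± 0.09 on the log2 scale (adjusted p = 5.17e-05). Gdf15 had 471, 467 and 484 counts with oligomycin and 128, 156 and 128 with both. Its groups were also separate (log2 fold change -1.79 ± 0.16, adjusted p = 4.22e-09), but here the DMSO mean was 19.9 ± 2.87 and the level with both agents stayed 6.90-fold above it.

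Of 12 genes for eIF2α kinases and the OMA1 relay, which pass mitochondrial stress on to eIF2α, 0 were higher, 2 lower and 10 not called (median -0.10), a share near the 14.1% of all genes lower. The heme-regulated kinase gene Eif2ak1 changed by -0.07 ± 0.10 (adjusted p = 0.655), the PERK gene Eif2ak3 by 0.27 ± 0.33 (adjusted p = 0.611), the GCN2 gene Eif2ak4 by -0.01 ± 0.20 (adjusted p = 0.981) and the protease gene Oma1 by 0.13 ± 0.16 (adjusted p = 0.62). Each of these 4 had overlapping groups. The 2 that fell were Phb and Phb2, which encode the prohibitin ring of the inner membrane, and neither call held throughout: that of Phb2 was lost without combination replicate 1 (adjusted p = 0.125) and that of Phb without the count filter (adjusted p = 0.0509).

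Most of the genes tested that supply amino acids fell. Among 13 serine and one-carbon enzymes, 8 were lower, 1 higher and 4 not called (median -0.46). Among 9 tested genes of asparagine, proline and cysteine synthesis, 7 were lower and 2 not called (median -0.64), and among 12 plasma membrane amino acid transporters, 7 were lower and 5 not called (median -0.48). No member of the last 2 lists was higher, beside a median of 0.01 over all genes.

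In serine synthesis, Psph, the final enzyme, had 971, 913 and 976 counts with oligomycin and 496, 554 and 533 with both. The combination samples were all lower (log2 fold change -0.85 ± 0.10, adjusted p = 1.97e-07), with DMSO at 326 ± 43.4 (SD, n = 3). The mitochondrial folate enzymes Shmt2 and Mthfd2 fell by 0.83 ± 0.05 and 0.74 ± 0.07 (adjusted p = 4.04e-12 and 5.41e-09). Shmt1, their cytosolic counterpart, had 76.6, 96.8 and 70.5 counts with oligomycin and 34.6, 35.5 and 35.2 with both, below the 52.1 ± 4.31 of DMSO. It had the largest fall of the list, 1.21 ± 0.20 (adjusted p = 5.45e-05). The exception was Mthfd1l, which closes the mitochondrial folate path to formate: it was 0.31 ± 0.09 higher (adjusted p = 0.0104), a call that was lost without oligomycin replicate 2.

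Cth, which makes cysteine from cystathionine, had 296, 274 and 275 counts with oligomycin and 118, 86.1 and 95.9 with both. Its groups were separate and its fall of 1.50 ± 0.19 was the largest of the second list (adjusted p = 1.55e-06). Got1, which makes aspartate, fell by 0.91 ± 0.07 (adjusted p = 4.34e-10). Pycr1, of proline synthesis, fell by 0.82 ± 0.09 (adjusted p = 3.12e-07), and asparagine synthetase Asns by 0.73 ± 0.06 (adjusted p = 1.95e-10). Got1 and Asns remained above DMSO with both agents, by 0.36 ± 0.07 and 0.85 ± 0.06 (adjusted p = 0.000736 and 2.51e-11).

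Among the transporters, Slc7a1, a carrier of arginine and lysine, had 862, 951 and 846 counts with oligomycin and 387, 432 and 421 with both. Those groups did not overlap (log2 fold change -1.10 ± 0.10, adjusted p = 2.18e-09). Slc7a5 and Slc3a2, the 2 chains of the LAT1 carrier of large neutral amino acids, fell by 1.01 ± 0.16 and 0.86 ± 0.05 (adjusted p = 2.70e-05 and 7.33e-13). Slc6a9, the glycine transporter, fell by 0.90 ± 0.10 (adjusted p = 1.29e-07).

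The enzymes that load amino acids onto tRNA in the cytosol fell almost throughout. Of 20 cytosolic tRNA synthetase genes, 17 were lower, 0 higher and 3 not called, with a median of -0.53. Of 17 mitochondrial tRNA synthetase genes, 3 were lower, 1 higher and 13 not called, with a median of -0.06. These shares are near or below the 14.1% of all genes lower and 12% higher. Wars, for tryptophan, had 2757, 2756 and 2672 counts with oligomycin and 1140.0, 1293 and 1163 with both. Its groups were separate and the fall was the largest of the list (log2 fold change -1.19 ± 0.05, adjusted p = 4.71e-15). Rars, for arginine, had 2076, 2015 and 2008 counts with oligomycin and 984, 986 and 980.5 with both. These lay about the DMSO mean of 1064 ± 96.6 (SD, n = 3), and the fall was 1.05 ± 0.06 (adjusted p = 5.06e-13). Eprs and Gars, for glutamate with proline and for glycine, each fell by 0.68 (adjusted p = 1.27e-11 and 5.43e-11).

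The 3 cytosolic synthetases without a call were Dars, Qars and Vars. Dars changed by -0.11 ± 0.05 (adjusted p = 0.133) and Qars by 0.05 ± 0.05 (adjusted p = 0.589). Vars, for valine, had 576, 759.7 and 1633 counts with oligomycin and 1191, 709 and 407 with both, so that its samples spread more than 2-fold within each group and the groups overlapped (log2 fold change -0.36 ± 0.39, adjusted p = 0.557). The plate code in the labels, read as wells of a 96-well plate, puts oligomycin replicates 1 and 2 and combination replicate 3 in outer wells. The sole oligomycin sample elsewhere had the highest count of Vars in its group, and combination replicate 3 the lowest in its own. Combination replicate 2, outside the outer wells, had 709 counts, below the 759.7 of oligomycin replicate 2 in an outer well. Why the samples of Vars spread was not tested. Of 17 mitochondrial synthetases, Ears2 fell by 0.82 ± 0.14 (adjusted p = 5.00e-05), Tars2 by 0.55 ± 0.08 (adjusted p = 1.63e-05) and Rars2 by 0.49 ± 0.10 (adjusted p = 0.000573). The single rise there, of Cars2 by 0.69 ± 0.23 (adjusted p = 0.0291), came with overlapping groups and was no longer called without oligomycin replicate 1 (adjusted p = 0.194), oligomycin replicate 2 (0.0803), combination replicate 1 (0.114) or combination replicate 3 (0.0570).

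**Figure D3:**
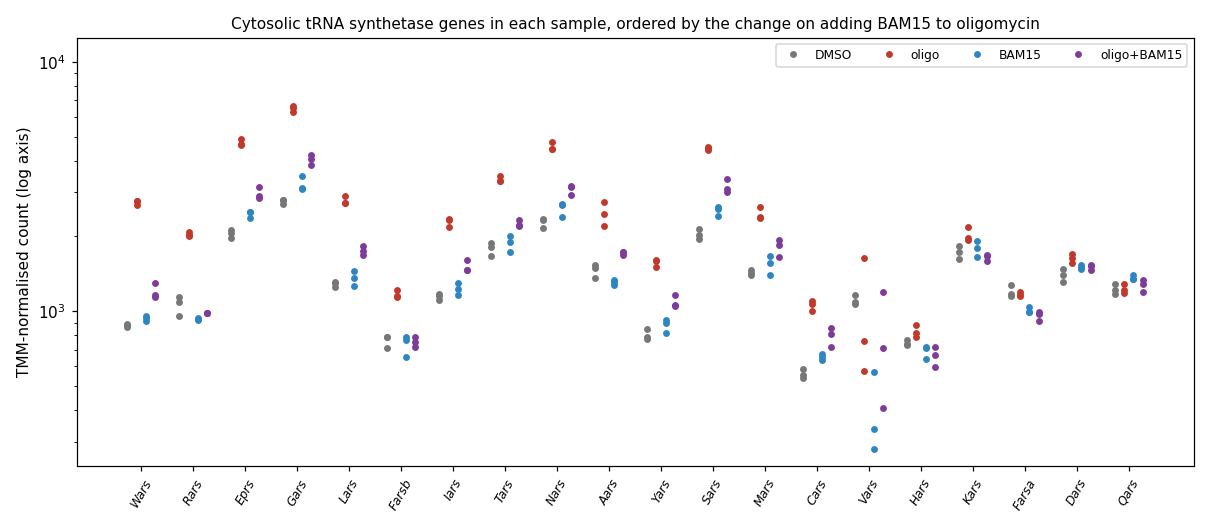
Normalised counts on a log axis of the cytosolic tRNA synthetase genes in each sample of the DMSO, oligomycin, BAM15 and combination groups, ordered by the change on adding BAM15 to oligomycin. For Wars and Rars the 3 combination samples lie below the 3 oligomycin samples, while the samples of Vars are spread.

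Chaperones were counted for the mitochondrion and for the endoplasmic reticulum (ER). Of 14 mitochondrial chaperone and protease genes, 8 fell, 0 rose and 6 were not called (median -0.29). Dnaja3 and Hspa9, partners in folding of imported proteins, fell by 0.71 ± 0.06 and 0.59 ± 0.04 (adjusted p = 2.76e-09 and 1.98e-11). Hspd1, the matrix chaperonin HSP60, had 2628, 2598 and 2538 counts with oligomycin and 1588, 1650.0 and 1621 with both. These groups did not overlap, and the combination lay about the DMSO mean of 1663 ± 60.7 (SD, n = 3), with a fall of 0.68 ± 0.04 (adjusted p = 9.39e-12). Of 17 ER chaperone and XBP1 branch genes, 5 fell, 1 rose and 11 were not called (median -0.07), beside 14.1% of all genes lower and 12% higher. Hspa5, the ER chaperone BiP, had 8916, 8142 and 8348 counts with oligomycin and 5814, 6011 and 5852 with both. Here oligomycin had not raised the gene, with DMSO at 8413 ± 178, and the combination fell below it (against oligomycin -0.52 ± 0.04, adjusted p = 9.08e-11, and against DMSO -0.51 ± 0.04, adjusted p = 2.09e-10).

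Of 16 p53 target genes, 8 fell, 1 rose and 7 were not called (median -0.26). Plk2, a polo-like kinase gene, had 3533, 3487 and 3367 counts with oligomycin and 1598, 1635 and 1536 with both, with no overlap (-1.12 ± 0.05, adjusted p = 1.35e-15). Aen, an apoptotic nuclease gene, and Eda2r, a death receptor gene that muscle expresses, fell by 1.02 ± 0.05 and 0.72 ± 0.06 (adjusted p = 4.07e-14 and 4.32e-10). Of 12 NRF2 antioxidant genes, 3 fell and 9 were not called (median 0.01), beside 14.1% of all genes lower and 12% higher. Of 11 heat shock genes, 5 rose and 3 fell (median -0.03), with the constitutive chaperone Hspa8 higher by 0.46 ± 0.04 (adjusted p = 7.66e-09) and the small heat shock gene Hspb8 lower by 0.51 ± 0.05 (adjusted p = 2.55e-08).

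Myog, the transcription factor myogenin that starts muscle differentiation, had 19168, 19480.0 and 19206 counts with oligomycin and 7844, 8414 and 7838 with both. The samples with both agents were all lower, 2.40-fold on average (log2 fold change -1.26 ± 0.04, adjusted p = 9.01e-18), and did not differ by the test from DMSO, which had 7868 ± 430.4 (SD, n = 3; 0.03 ± 0.04, adjusted p = 0.628). Of 24 myotube marker genes, 11 were higher, 2 lower and 11 not called (median 0.11). Myoglobin Mb and the fusion gene Mymx rose by 0.96 ± 0.06 and 0.86 ± 0.08 (adjusted p = 4.04e-12 and 3.56e-09). Of 16 markers of undifferentiated or cycling cells, 9 were lower, 1 higher and 6 not called (median -0.52), among them the replication helicase genes Mcm5, with a fall of 1.11 ± 0.16, and Mcm3, with a fall of 0.97 ± 0.17 (adjusted p = 8.10e-06 and 8.66e-05).

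Targets of HIF rose on adding BAM15. Of 14 HIF target genes, 13 were higher and 1 was not called, with a median log2 fold change of 2.01. Adm (ENSMUSG00000030790, chr7:110627661-110629820), the vasodilator peptide adrenomedullin, had 17.7, 3.62 and 6.04 normalised counts with oligomycin and 248, 284 and 286 with both. The oligomycin samples were near the bottom of detection, the combination samples were all far higher, and the log2 fold change was 4.90 ± 0.28 (adjusted p = 1.08e-12). Bnip3 (ENSMUSG00000078566, chr7:138890836-138909519), a receptor for mitophagy, had 775, 810.4 and 676 counts with oligomycin and 6682, 6774 and 6803 with both. Its groups were separate and 8.95-fold apart (log2 fold change 3.16 ± 0.10, adjusted p = 8.76e-18). Ankrd37 had 12.8, 22.6 and 19.1 counts with oligomycin and 276, 356 and 328 with both. Again the groups did not overlap (4.12 ± 0.22, adjusted p = 2.64e-13). Pfkfb3, which makes the activator of phosphofructokinase, rose by 2.84 ± 0.23 (adjusted p = 8.32e-10). The member without a call was Pfkfb4, at -0.20 ± 0.19 (adjusted p = 0.492).

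Oligomycin alone had lowered many of these genes. Against DMSO, 8 of the 14 were lower with oligomycin and 1 was higher (median -0.53), on a background of 16.4% of all genes lower and 16.9% higher in that comparison. With both agents against DMSO, 13 of 14 were higher (median 1.46; 12.1% of all genes were higher and 11% lower), and with BAM15 alone against DMSO, 13 of 14 were higher (median 1.58; 13.2% of all genes were higher and 12.2% lower). These comparisons share the same 3 DMSO samples. Bnip3 thus averaged 1937 ± 354 (SD, n = 3) with DMSO, 754 ± 69.5 with oligomycin, 7768 ± 367 with BAM15 and 6753 ± 63.3 with both. In 5% O2 the mean was 11360.0 ± 322 with DMSO and 8116 ± 424 with oligomycin. Adm averaged 66.2 ± 15.4 with DMSO, 9.11 ± 7.51 with oligomycin, 359 ± 14.4 with BAM15, 273 ± 21.1 with both, and 319 ± 32.0 with DMSO in 5% O2. In both genes the combination stood on the side of BAM15 alone and of 5% O2, above DMSO.

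**Figure D4:**
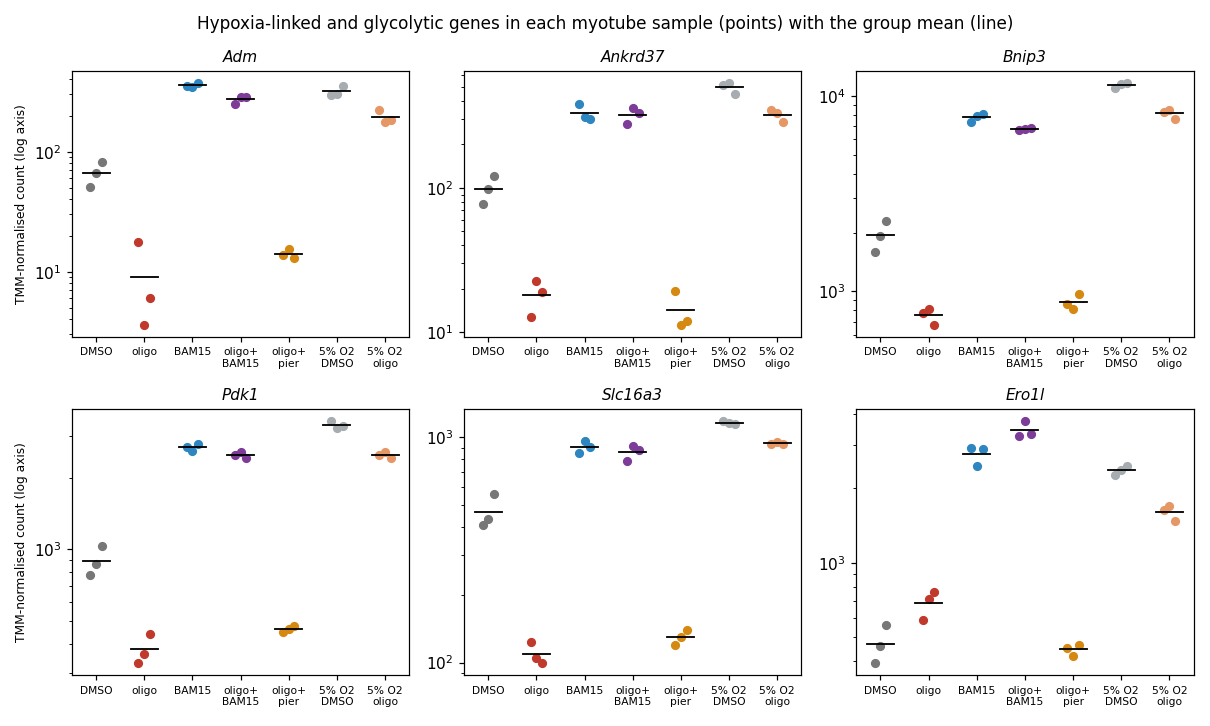
Normalised counts on a log axis of 6 hypoxia-linked and glycolytic genes in each sample of 7 myotube groups (points), with the group mean as a line. The samples with BAM15, with or without oligomycin, and those in 5% O2 are above DMSO, and for Adm the oligomycin samples outside 5% O2 lie lowest, together with those of oligomycin and piericidin.

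Most glycolysis genes rose. Of 19 tested, 16 were higher, 0 lower and 3 not called, with a median of 1.02. Slc16a3, the MCT4 carrier that exports lactate, had 124, 105 and 99.7 counts with oligomycin and 786, 919 and 882 with both. All combination samples were higher (log2 fold change 2.98 ± 0.12, adjusted p = 5.27e-16). Pfkl, a phosphofructokinase, had 542, 506 and 458 counts with oligomycin and 3410.0, 3483 and 3507 with both. This was a 6.90-fold separation (2.79 ± 0.08, adjusted p = 1.91e-18). Pgam1 and Ldha, a phosphoglycerate mutase and the muscle-type lactate dehydrogenase, rose by 1.95 ± 0.05 and 1.68 ± 0.04 (adjusted p = 3.72e-19 and 3.12e-19). The 3 without a call were the insulin-regulated glucose carrier Slc2a4, the hexokinase Hk2 and the muscle enolase Eno3. Hk2 was above DMSO with either agent: its mean was 552 ± 54.9 (SD, n = 3) with DMSO, 1836 ± 88.1 with oligomycin, 1622 ± 107 with BAM15 and 1685 ± 239 with both.

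The genes with the largest rises included several members of no fixed list. Gpr35 (ENSMUSG00000026271, chr1:92950865-92986391), a G-protein-coupled receptor gene, had 6.87, 4.52 and 4.03 counts with oligomycin and 307, 284 and 322 with both. The difference was the largest of those named, 5.86 ± 0.24 on the log2 scale (adjusted p = 1.77e-15), and the mean with DMSO lay between, at 82.0 ± 18.8 (SD, n = 3). Ak4, a mitochondrial adenylate kinase, had 16.7, 9.04 and 20.1 counts with oligomycin and 559, 420.0 and 523 with both. Its groups were likewise separate (5.04 ± 0.27, adjusted p = 2.55e-13). Apln, which encodes the peptide apelin, rose by 4.22 ± 0.43, with 357, 224 and 141 counts in the 3 combination samples (adjusted p = 3.98e-08). Mgarp, Asb2, Car12, Ucp3, Smim5 and Proser2 completed the named rises, with log2 fold changes of 3.74, 3.59, 3.41, 3.34, 3.21 and 3.20. Ucp3, the muscle uncoupling protein, had 3.93, 7.24 and 4.03 counts with oligomycin and 46.5, 58.0 and 54.4 with both, a higher level in every combination sample (adjusted p = 1.02e-08).

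Below Atf3, the largest falls were in genes of varied function. Rad54b, of homologous recombination, had 310.2, 239.7 and 266 counts with oligomycin and 38.6, 24.3 and 26.6 with both, without overlap (-3.18 ± 0.39, adjusted p = 6.24e-07). Itgb2, Avil, Sh3tc2, Cyp3a41a, Serpinb9g, Acox2 and B3gnt5 also fell, with log2 fold changes of -2.77, -2.77, -2.77, -2.76, -2.56, -2.41 and -2.31. Ptgs2, the inducible cyclooxygenase, had 1034, 817 and 872 counts with oligomycin and 209, 188 and 233 with both. Its combination samples were all lower (-2.11 ± 0.11, adjusted p = 1.69e-13), and the DMSO mean was 98.8 ± 6.87 (SD, n = 3). Car6, a secreted carbonic anhydrase, fell by 2.09 ± 0.28 (adjusted p = 3.12e-06) from 238, 201 and 222 counts to 46.5, 58.9 and 49.0.

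Signalling and turnover genes moved in both directions. Of 20 immediate early and MAP kinase feedback genes, 10 rose, 3 fell and 7 were not called (median 0.27), with the AP-1 gene Fosl1 and Ier3 higher by 1.53 ± 0.25 and 1.21 ± 0.08 (adjusted p = 5.06e-05 and 1.78e-11) and Myc lower by 0.72 ± 0.08 (adjusted p = 3.50e-07). Of 14 atrophy, FOXO and autophagy genes, 9 rose, 2 fell and 3 were not called (median 0.35). Ulk1, which starts autophagy, had 144, 122 and 127 counts with oligomycin and 347, 327 and 319.7 with both. All combination samples were higher (1.34 ± 0.13, adjusted p = 8.77e-09). Fbxo32, the atrophy ubiquitin ligase atrogin-1, rose by 0.71 ± 0.08 (adjusted p = 4.18e-07). Fst, the myostatin antagonist follistatin, had 106, 129 and 99.7 counts with oligomycin and 506, 463 and 436 with both, yet its DMSO mean was 988 ± 72.3 (SD, n = 3). The rise of 2.06 ± 0.17 (adjusted p = 9.00e-10) thus left it below DMSO.

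Of 23 genes of the sterol synthesis program, 11 fell, 0 rose and 12 were not called (median -0.20). Cyp51, a sterol demethylase, fell by 0.52 ± 0.05 (adjusted p = 6.00e-09). Oligomycin had already lowered 13 of the 23 (16.4% of all genes), and with both agents 19 were below DMSO (11% of all genes; median -0.56). Of 19 fatty acid oxidation and PPAR target genes, 7 rose and 12 were not called (median 0.12). Beside Ucp3, Angptl4, an inhibitor of lipoprotein lipase, rose by 1.50 ± 0.11 (adjusted p = 8.12e-11). Txnip, a glucose-responsive arrestin gene, rose by 1.14 ± 0.13 (adjusted p = 4.00e-07), and of the other 2 tested genes of MondoA glucose sensing 1 fell and 1 was not called.

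The lists of oxidative phosphorylation genes had medians close to that of all genes. Beside the counts in this paragraph, 12% of all genes were higher and 14.1% lower. Of 36 nuclear complex I subunit genes, 2 rose, 3 fell and 31 were not called, and of 16 ATP synthase subunit genes 2 rose, 2 fell and 12 were not called. Of 22 nuclear complex III and IV subunit genes, 5 rose and 3 fell, and of 13 mitochondrially encoded transcripts 2 rose and 2 fell. The medians of these 4 lists were 0.01, 0.04, 0.12 and -0.04. Several of these small counts rested on single libraries: leaving 1 out gave 0 to 2 higher and 1 to 2 lower among the ATP synthase genes, 2 to 8 higher among those of complexes III and IV, and 1 to 2 higher and 1 to 3 lower among the mitochondrial transcripts. The mitophagy receptor gene Bnip3l stood out among 12 carrier, dynamics and uncoupling genes, of which 3 rose and 2 fell (median 0.01): it had 1127, 1194 and 1149.5 counts with oligomycin and 2757, 2867 and 2868 with both. The groups were separate, with a rise of 1.29 ± 0.06 (adjusted p = 2.95e-15). Of 13 tested regulators of mitochondrial biogenesis, 4 fell, 1 rose and 8 were not called (median -0.12). The largest called change was the fall of Esrrg. Its call was lost without oligomycin replicate 2 or 3 (adjusted p = 0.0509 and 0.0565) or combination replicate 1 or 2 (0.0591 and 0.0798). The coactivator gene Ppargc1a had 19.6, 18.1 and 11.1 counts with oligomycin and 29.7, 41.2 and 38.4 with both, higher in each (1.15 ± 0.30, adjusted p = 0.00578), and Polrmt, the mitochondrial RNA polymerase, fell by 0.60 ± 0.06 (adjusted p = 9.25e-08).

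Genes of the extracellular matrix, calcium handling and cytokines were also counted, beside 12% of all genes higher and 14.1% lower. Of 16 matrix and TGF-beta genes 3 rose and 1 fell (median -0.02), of 18 calcium handling and acetylcholine receptor genes 5 rose and 4 fell (median 0.04), and of 8 tested chemokines and cytokines 1 rose and 2 fell (median -0.11). The calls of the 3 cytokine genes were all lost without the count filter: Il15, which rose (adjusted p = 0.123), and Cx3cl1 and Ccl7, which fell (adjusted p = 0.163 and 0.0960). The matrix cross-linking enzyme Lox rose by 0.81 ± 0.06 (adjusted p = 2.78e-11).

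**Figure D5:**
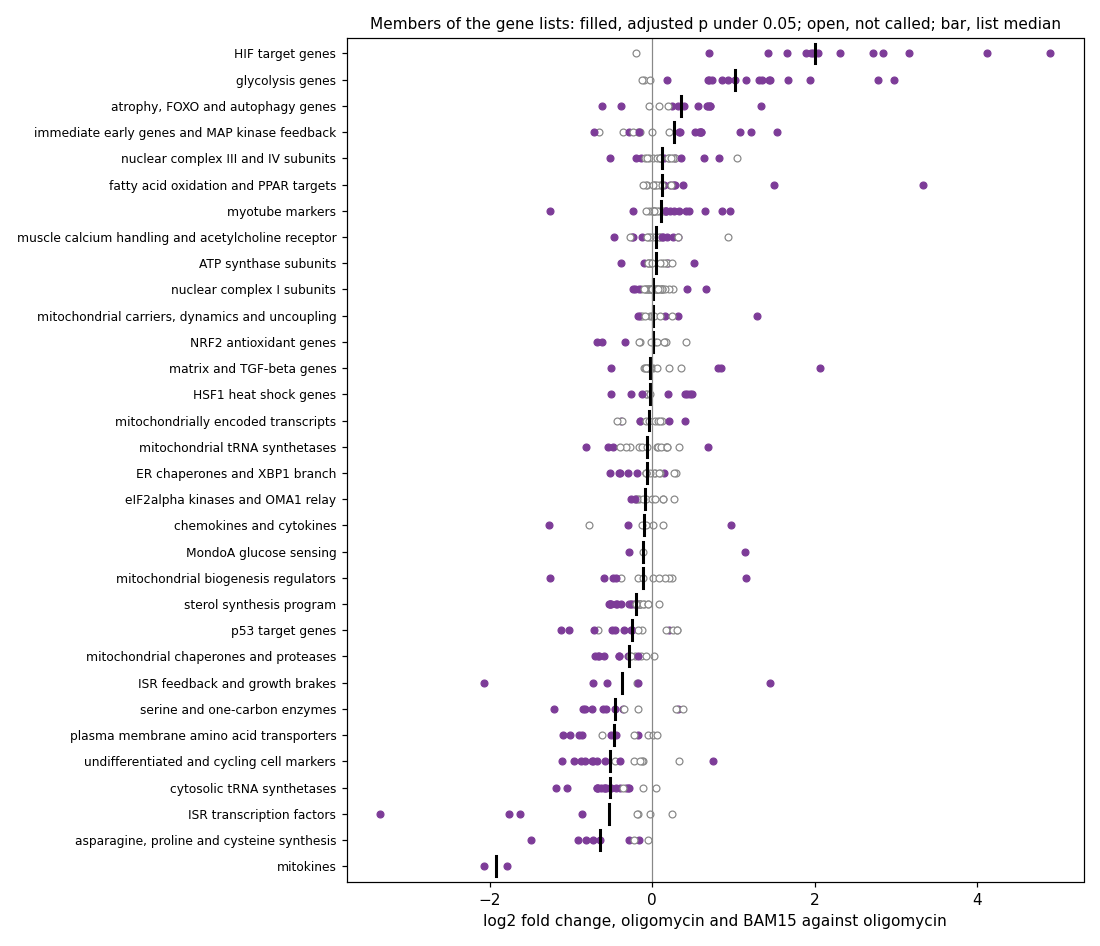
Each row is a gene list and each point a member, placed by its log2 fold change between oligomycin with BAM15 and oligomycin alone, filled where the edgeR adjusted p is under 0.05. Bars mark list medians, from 2.01 for the HIF target genes and 1.02 for glycolysis down to -1.93 for the 2 mitokines.

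Whether BAM15 acted differently with and without oligomycin was tested as an interaction of the 2 agents over the DMSO, oligomycin, BAM15 and combination groups. The interaction was called at 1025 genes (8.21%) in the higher and 1302 genes (10.4%) in the lower direction, where lower means that BAM15 lowered the gene more, or raised it less, in the presence of oligomycin. Of the 8 ISR transcription factors 6 were called lower and 0 higher, and of the 20 cytosolic tRNA synthetases 16 were lower and 0 higher. Of the 14 HIF target genes 8 were called higher and 0 lower, and of the 13 mitochondrially encoded transcripts 9 were higher and 0 lower. The interaction of Ddit3 was -3.82 ± 0.11 on the log2 scale (adjusted p = 5.32e-18): BAM15 raised it from 201 ± 15.1 to 832 ± 42.8 without oligomycin and lowered it from 3343 ± 24.8 to 979 ± 102 with it (SD, n = 3 each). Ppp1r15a went from 291 ± 17.9 to 588 ± 15.3 without and from 2734 ± 48.7 to 648 ± 16.3 with oligomycin (interaction -3.09 ± 0.10, adjusted p = 5.84e-17). Ddit3 and Ppp1r15a thus moved in opposite directions in the 2 settings. Of the HIF targets, Ero1l, the ER thiol oxidase, did not pass the interaction test (-0.22 ± 0.14, adjusted p = 0.302): it rose from 472 ± 82.7 to 2748 ± 259 without and from 688 ± 89.4 to 3428 ± 265 with oligomycin.

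The interaction also named Rnf187 and Dapk3, whose samples within a group were far apart. Rnf187 had 191, 290.3 and 601 counts with oligomycin and 943, 307 and 221 with both, so that the groups overlapped (0.45 ± 0.72, adjusted p = 0.71), whereas DMSO held 2189.5 ± 196 and BAM15 alone 253 ± 79.1 (SD, n = 3). No DMSO sample was in an outer well, against 2 of 3 with oligomycin, 2 of 3 with BAM15 and 1 of 3 with both. Combination replicate 2, outside the outer wells, had 307 counts of Rnf187, and oligomycin replicate 2, in an outer well, had 290.3. With a term for outer wells in the fit, 556 genes were called for that term, 531 of them lower in outer wells. The interaction was then called at 718 genes in the higher and 957 in the lower direction. The interactions of Rnf187 and Dapk3 then dropped from 3.56 and 3.58 to 1.82 and 1.56 and were no longer called (adjusted p = 0.188 and 0.259), while that of Atf3 was -5.27 (adjusted p = 2.40e-15).

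Set beside BAM15 alone, a comparison chosen after seeing the data, oligomycin with BAM15 differed at few genes, with 73 higher (0.584%) and 139 lower (1.11%), of which 2 and 1 changed by 2-fold or more. The 212 calls became 117 without combination replicate 1, 134 without combination replicate 2 and 108 without BAM15 replicate 2. None of the 14 HIF target genes was among the 212 (median -0.11). With only the BAM15 and combination samples in the fit, 40 genes were higher and 32 lower. Adding the replicate number as a block to that fit gave 110 higher and 86 lower, with 1 HIF target in each direction. Without the count filter, 280 genes were higher and 113 lower. Of the 20 cytosolic tRNA synthetases, 10 were higher with both agents and 0 lower (median 0.27; 6 higher without BAM15 replicate 1 or with only the BAM15 and combination samples in the fit, and 12 in that fit with the replicate block), and 3 of the 8 ISR transcription factors were higher. Gdf15 was the named gene with the largest rise, from 61.5, 92.9 and 76.2 counts with BAM15 to the 128, 156 and 128 with both. The combination was higher in every sample (0.83 ± 0.17, adjusted p = 0.00921), but the call was lost without combination replicate 2 (adjusted p = 0.0685) or BAM15 replicate 1 (adjusted p = 0.0680). With only the BAM15 and combination samples in the fit its adjusted p was 0.0987 in edgeR, and 0.0277 once the replicate block was added. Trib3 and the glycine transporter gene Slc6a9 were higher by 0.50 ± 0.08 and 0.73 ± 0.10 (adjusted p = 0.000442 and 0.000136). Of the sterol genes, 9 of 23 were lower with both than with BAM15 and 0 higher, but 5 were lower without combination replicate 1 and 1 with only the BAM15 and combination samples in the fit, or 5 with the replicate block added. Of the 13 mitochondrially encoded transcripts, 7 were higher with both than with BAM15 and 0 lower (median 0.32, with 5 to 7 higher when a library was left out). BAM15 alone had lowered 10 of the 13 against DMSO, beside 12.2% of all genes. The cytochrome b transcript mt-Cytb averaged 9066 ± 424 counts with DMSO, 6051 ± 303 with BAM15 and 7948 ± 332 with both (SD, n = 3), and was 0.39 ± 0.04 higher with both than with BAM15 on the log2 scale (adjusted p = 1.24e-06). The smooth muscle actin gene Actg2 had 257, 257 and 246 counts with BAM15 and 129, 185 and 158 with both, lower in each (-0.69 ± 0.10, adjusted p = 0.000293), with an adjusted p of 0.0707 with only the BAM15 and combination samples in the fit and 0.0237 with the replicate block added.

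Piericidin, added to oligomycin in place of BAM15, blocks respiration at complex I rather than uncoupling it. The 2 combinations differed at 723 genes (5.79%) higher and 393 genes (3.15%) lower with BAM15, the latter 241 with only these 2 groups in the fit. Atf3 averaged 187 ± 16.5 with BAM15 and 178 ± 25.2 with piericidin (SD, n = 3 each), a log2 difference of 0.08 ± 0.14 (adjusted p = 0.82), against 1913 ± 46.5 with oligomycin alone. Gdf15 averaged 137 ± 16.4 and 115 ± 6.13 in the 2 combinations (0.25 ± 0.17, adjusted p = 0.421). Other ISR genes did differ, in either direction: Ddit3 was higher with BAM15, at 979 ± 102 against 564 ± 51.0 (0.79 ± 0.07, adjusted p = 2.20e-08), and Fgf21 was lower, at 439 ± 56.4 against 643 ± 17.4 (-0.55 ± 0.08, adjusted p = 4.52e-05). Of 8 ISR transcription factors, 4 were higher with BAM15 and 0 lower.

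The HIF targets and glycolysis genes separated the 2 combinations, with 13 of 14 and 15 of 19 higher with BAM15 and 0 lower (medians 2.45 and 1.02). Bnip3 had 861, 818 and 974 counts with oligomycin and piericidin against the 6682, 6774 and 6803 with oligomycin and BAM15. The piericidin samples were close to those of oligomycin alone, and the difference between the combinations was 2.93 ± 0.10 (adjusted p = 3.02e-17). Ak4 differed by 4.76 ± 0.26 (adjusted p = 6.46e-13), with 16.6, 17.5 and 20.9 counts in the piericidin samples. Of the sterol genes, 15 of 23 were lower with BAM15 and 0 higher. Dtl and Mest, of DNA replication control and an imprinted hydrolase, were also lower with BAM15, by 1.08 ± 0.19 and 1.07 ± 0.09 (adjusted p = 0.000418 and 3.75e-09).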

How the data were processed

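RNA-seq was measured in 96 samples, 6 of which make up the main comparison. The libraries, made for the authors by a sequencing facility with Smart-seq2 from polyA RNA, did not keep the strand, so reads of overlapping genes cannot be told apart. Reads were demultiplexed with bcl2fastq 2.20.0.422 and quantified with kallisto 0.44 (the submitters' processing notes; genome mm10). They deposited unnormalised estimated counts per gene as whole numbers, with the transgenes included; the latter were at 0 in these samples.

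Samples were grouped by title. Between BAM15 and the combination, deviations from group means correlated at 0.159 to 0.284 for the same number. Oligomycin and BAM15 samples of different numbers reached 0.323, so whether replicate numbers pair the samples is not known. A gene was tested where all replicates of at least 1 group reached 16 counts (12491 genes). The 27 untransduced day 4 myotube samples (9 groups) were fitted together in R 4.3.3 with edgeR 4.0.16 (TMM, quasi-likelihood F test, limma 3.58.1 loaded), with p-values adjusted after Benjamini-Hochberg over all genes and a threshold of 0.05. Normalised counts are TMM-scaled to 10558268. The standard error of a log2 fold change was taken as its absolute value over the root of the F statistic. Depth limits the precision of genes with few counts.

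The members and the 32 gene lists (496 genes, 475 tested) were chosen with earlier results of these data known. A rule took the genes for naming, and not all of them are described above. It took the largest changes among calls with a mean of at least 50 normalised counts in the higher group and separate replicates (not asked of the interaction). Up to 12 per direction came from the main comparison, 6 from the interaction and from the combination against DMSO, and 5 from the others. Predicted genes and pseudogenes were left out. Each list gave up to 4 called members by size, and lists of 12 or fewer gave every tested member. Atf3, Ddit3, Gdf15, Atf4 and Ppp1r15a were also taken. Further list members were named after their values were seen to complete a count or a role. Coordinates are from GENCODE, promoter sequences from RefSeq (GRCm38.p6).

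Alternatives were DESeq2 1.42.0 size factors in edgeR, no count filter, the DESeq2 Wald test, replicate number as a block, a term for outer wells of the plate, only the groups compared, and leaving out each replicate in turn. Read files were not used here.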

Additional observations from a re-analysis of the deposited data

Results flagged for a closer look

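For 16 of the genes described, the effect of BAM15 differed between myotubes with and without oligomycin, by the interaction test of edgeR over 4 groups of 3 samples; values are log2 interactions. The interaction was negative for Car6 (-6.22), Atf3 (-5.48), Avil (-5.07), Cdsn (-4.21), Trib3 (-4.16), Akr1b7 (-3.87), Ddit3 (-3.82), Gdf15 (-3.74), Ppp1r15a (-3.09) and Atf4 (-1.50). It was positive for Gpr35 (3.88), Scml4 (3.69), Smim5 (3.64), Dapk3 (3.58), Rnf187 (3.56) and Col13a1 (3.44).

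Cdsn, which encodes the adhesion protein corneodesmosin, averaged 29.6 ± 7.42 normalised counts (SD, n = 3) with DMSO, 966 ± 55.4 with oligomycin, 155 ± 21.4 with BAM15 and 269.8 ± 12.5 with both. Scml4, a Polycomb group-like gene, averaged 578 ± 26.3 with DMSO, 35.7 ± 3.56 with oligomycin, 215 ± 5.86 with BAM15 and 172 ± 26.9 with both. Car6 rested on a DMSO group at 2.17, 0 and 2.99 counts, so the size of its interaction is loosely fixed. With a term for outer wells, the interactions of Dapk3 (1.56, adjusted p = 0.259) and Rnf187 (1.82, adjusted p = 0.188) were no longer called and the other 14 were.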

How the results depend on the processing

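Counts of genes called in the 7 comparisons stayed within 1.5 times under DESeq2 size factors, the DESeq2 Wald test, the outer-well term and the replicate block in every comparison. Within that range, the outer-well term took the interaction from 2327 to 1675 calls (718 higher, 957 lower). It took BAM15 against DMSO from 3177 to 2521 calls and oligomycin against DMSO from 4164 to 3572. The exceptions to 1.5 times, under other alternatives, were these. Fitting only the groups compared gave 241 genes lower with BAM15 than with piericidin in place of 393, and 105 called against BAM15 alone in place of 212, 48 of them lower. With only the BAM15 and combination samples, 72 genes were called between them, 40 higher and 32 lower, the calls of Gdf15 and Actg2 were lost (adjusted p = 0.0987 and 0.0707) and 1 sterol gene was lower, and with the replicate block added 110 were higher and 86 lower; the block then called Gdf15 and Actg2 (adjusted p = 0.0277 and 0.0237), 5 sterol genes lower and 1 HIF target in each direction. These 2 fits were chosen after seeing the data. No count filter gave 393 called against BAM15 alone, 280 of them higher. Leaving out a replicate gave 108 to 153 called against BAM15 alone, 41 to 55 higher and 56 to 102 lower, with the fewest higher (41) without combination replicate 2 and the fewest lower (56) without BAM15 replicate 2. In the main comparison leaving out a replicate gave 2720 to 2900 calls, 1228 to 1303 higher and 1417 to 1604 lower, in place of 3263.

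Among the pairs of groups compared, only between BAM15 and the combination did every sample correlate best with its own number (different numbers: -0.302 to 0.131). Oligomycin and BAM15 samples of different numbers correlated as highly, at 0.299 (replicates 1 and 2) and 0.323 (replicates 2 and 3). Whether replicate numbers pair the samples is therefore not known. In the comparison with BAM15 alone, the replicate block over all groups called 199 genes and kept the calls of Gdf15, Trib3, Slc6a9 and Actg2. Deviations of oligomycin and combination samples correlated at -0.287 to -0.231 for the same number and at 0.0787 to 0.203 for different numbers. With the replicate block, 3216 genes were called in the main comparison. Of the 211 genes taken by the naming rule, 162 of them called, 170 stayed on their side of the threshold under every alternative. Another 41 crossed it in at least 1 and 0 reversed. Of the list counts in the main comparison, 46 moved by over 1.5 times on leaving out a replicate (338 did not), 11 without the count filter (53 did not), 5 with only the groups compared, 2 with the replicate block, 1 with the outer-well term and 1 with the DESeq2 Wald test; all were counts that had stood at 5 or fewer. Leaving out a library gave 1 to 4 eIF2α relay genes lower, and 3 to 5 heat shock and 3 to 5 calcium handling genes higher. It gave 1 to 3 immediate early genes lower, and 1 to 2 lower in each of the carrier, matrix and cytokine lists. The p53 targets had 0 to 2 higher and the MondoA genes 0 to 1 lower. In each of the serine, mitochondrial synthetase, ER, NRF2 and cytokine lists, 0 to 1 were higher. With about 10537229 counts per library and 3 samples per group, small changes of genes with few counts were not detectable.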
